A study of Danio rerio with 34 samples.

Results

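The comparison described here is RNA from the testis of adult zebrafish exposed to 10 nM PCB126 against RNA from fish given the carrier DMSO. It holds 12 libraries, 6 labelled 10 nM and 6 labelled DMSO, of 18 RNA libraries and 34 samples in the series. Exposed fish spent 24 h in PCB126 and then 7 days in clean water before sampling. The control fish, labelled DMSO, a solvent, are recorded with the same times. PCB126 is a dioxin-like polychlorinated biphenyl. The labels call the libraries biological replicates of adult testis and name no strain, mutation or pooling. The series also holds 6 RNA libraries from fish given 3 nM, which entered the statistical fit, and bisulfite sequencing samples, which were not analysed here.

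PCB126 binds the aryl hydrocarbon receptor (AHR), a transcription factor of the cytosol that enters the nucleus with its ligand and turns on cytochrome P450 family 1 genes. The testis is made mostly of germ cells, which divide as spermatogonia, pass through meiosis as spermatocytes and grow a flagellum as spermatids. Around them lie Sertoli cells, which nurse the germ cells, Leydig cells, which make androgens, and vessels, macrophages and other resident cells. Whole-tissue RNA mixes all of these, so fewer cells of a type and less RNA per cell cannot be told apart.

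Expression is given as CPM, counts per 1e6 of the scaled library total, and each change as a log2 fold change of 10 nM against DMSO with its standard error (SE). A gene is called when its Benjamini-Hochberg adjusted p from edgeR's quasi-likelihood test is under 0.05. Gene symbols are those of the name table used, which writes many zebrafish genes with the human symbol in capitals. Where a symbol belongs to several genes the Ensembl identifier is added. As a check of the labels, CYP1A1 (zebrafish cyp1a, a monooxygenase and the classic AHR target) lay between 2.43 and 4.85 CPM in DMSO, with a median of 3.22. At 10 nM it lay between 815 and 2543 CPM, with a median of 1892, a log2 fold change of 9.0 (SE 0.42). Markers of the labelled tissue were abundant in both groups. The germ cell helicase DDX4 (vasa) had a median of 1346 CPM in DMSO and 1484 CPM at 10 nM. Neither it, the Sertoli cell gene gsdf nor the testis gene DMRT1 was called. Another Sertoli cell gene, amh, had a median of 600.3 CPM in DMSO and 290.2 CPM at 10 nM. It was below every control in 4 libraries but not called (log2 -0.77, SE 0.26, adjusted p = 0.0593). The Leydig cell gene insl3 had a median of 197 CPM in DMSO and 155 CPM at 10 nM. It was below every control in 3 libraries and not called (-1.11, SE 0.44, adjusted p = 0.0956). DMSO replicate 1 stood at 1156 CPM and the other controls at 162 to 347 CPM. The androgen synthesis gene cyp11c1 went the other way, above every control in 3 and not called (0.44, SE 0.20).

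Library totals ran from 16.2 to 29.8 M counts in DMSO and from 18.6 to 26.8 M at 10 nM (M, 1e6). In a principal component analysis whose leading axis took 39.7% of the variance, 10 nM replicates 1, 5 and 6 lay apart on that axis (128.9, 138.1 and 48.4), while the other 9 of the 12 lay below 0. Mitochondrially encoded genes took 6.9%, 7.22% and 5.89% of the counts in those 3 libraries, 2.53% to 3.15% in the other exposed ones and 1.68% to 2.94% in DMSO. The 100 most abundant genes took 25.7% to 27.9% there, against 16.1% to 17.5% and 14.9% to 18.5%. Deviations in these 3 libraries also followed the length of the gene on the chromosome (genomic span). Of 5 classes of span, genes in the shortest deviated from the DMSO mean by a median log2 value of 0.633, 0.665 and 0.359 in replicates 1, 5 and 6, and genes in the longest by -0.438, -0.415 and -0.17. What set these 3 fish or libraries apart was not tested, and at 3 nM replicates 4 and 6 also lay apart. Most functions are therefore given with the number of exposed libraries that show them, and again in a fit without these 5 libraries (3 at 10 nM and 2 at 3 nM), which sets 3 exposed libraries against 6 controls.

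**Figure D1:**
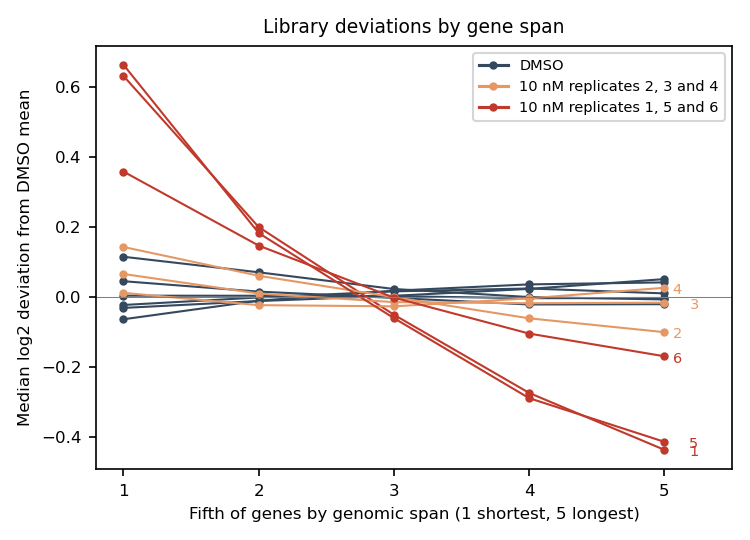
Median log2 deviation from the DMSO mean (y axis) of genes in 5 classes of genomic span, shortest to longest (x axis), one line per library; dark lines are the 6 DMSO libraries, orange lines 10 nM replicates 2, 3 and 4, red lines 10 nM replicates 1, 5 and 6. The red lines fall from 0.633, 0.665 and 0.359 in the shortest class to -0.438, -0.415 and -0.17 in the longest.

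Of 24053 genes tested, 2609 were called (10.8%), 1781 higher (7.4%) and 828 lower (3.44%). The median log2 fold change of all tested genes was 0.06. All 6 exposed libraries lay above every DMSO library for 704 tested genes (2.93%) and below every one for 770 (3.2%). Among the called genes, 608 of the 1781 higher ones and 441 of the 828 lower ones were separated in this way. For a further 928 higher genes replicates 1, 5 and 6 were all above the controls but at least 1 of replicates 2, 3 and 4 was not, and for 137 of these none of the other 3 was. The reverse, with replicates 2, 3 and 4 above the controls and not all of the other 3, held for 120. Among lower genes the same counts were 258, 30 and 55.

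The size of the change differed between libraries even for genes that all 6 showed. The 608 higher genes had a median log2 deviation of 1.26, 1.26 and 1.1 in replicates 1, 5 and 6, and of 0.73, 0.71 and 0.74 in replicates 2, 3 and 4. The 441 lower genes had medians of -0.94, -0.94 and -0.63 against -0.48, -0.41 and -0.42. Without the 5 libraries that stood apart, 468 genes were called (1.9% of 24575), 251 higher (1.02%) and 217 lower (0.883%), and 388 of them were among the 2609. The sign was unchanged for 2581 of the 2604 called genes that could be tested in both fits. When only the 3 exposed libraries were left out and the 3 nM libraries stayed in the fit, 100 genes were called (0.403% of 24833), 87 higher (0.35%) and 13 lower (0.0523%). Single libraries mattered as well: leaving out DMSO replicate 2 gave 826 calls, 10 nM replicate 5 gave 894, 10 nM replicate 1 gave 965 and 10 nM replicate 4 gave 3855.

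**Figure D2:**
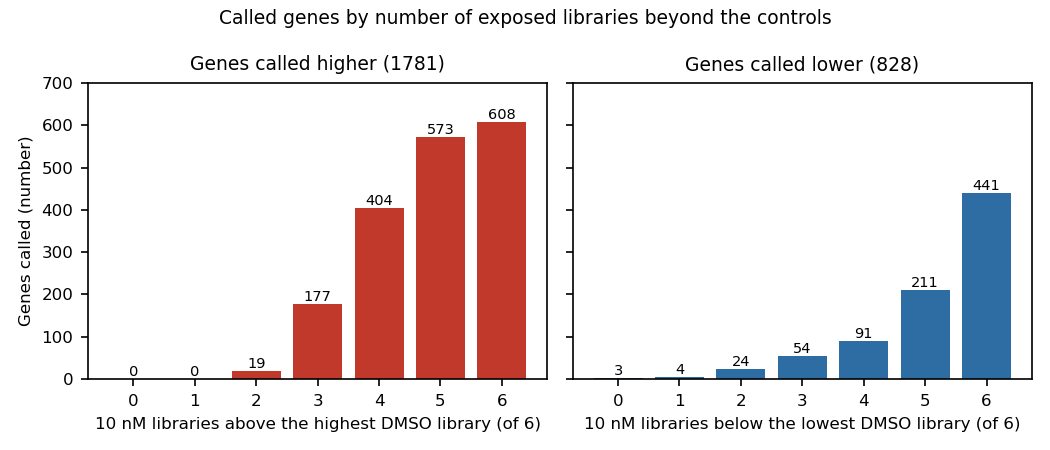
Number of called genes (y axis) by the number of 10 nM libraries, of 6, that lay above the highest DMSO library (left, genes called higher) or below the lowest (right, genes called lower). The tallest bars are 608 and 441 genes, which all 6 libraries showed.

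Several genes of phagocytes and granulocytes rose by over 4 on the log2 scale, and these were above the controls in every exposed library, though by very different amounts. The secreted lysozyme lyz, an enzyme that breaks bacterial cell walls, lay between 2.37 and 6.49 CPM in DMSO. At 10 nM it stood at 588, 757 and 93.0 CPM in replicates 1, 5 and 6 and at 16.3, 24.7 and 23.7 CPM in replicates 2, 3 and 4, so the groups did not overlap. The log2 fold change was 5.78 (SE 0.90, adjusted p = 0.00184, edgeR) with all libraries and 2.23 without the 5 (adjusted p = 0.00261). Nephrosin (npsn), a secreted protease of fish granulocytes, was likewise highest in replicates 1, 5 and 6, and ran from 3.01 to 6.22 CPM in DMSO and from 13.6 to 288 CPM at 10 nM (log2 4.35, SE 0.70, and 1.54 without the 5).

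The collagenase mmp13a rose by 6.15 on the log2 scale (SE 1.05) and LECT2 (ENSDARG00000033227), a secreted chemotactic factor, by 6.69 (SE 1.15). In the fit without the 5 libraries they rose by 1.82 and 2.31. Of 21 tested neutrophil genes of 25 in the list, 8 were higher and 0 lower, and the median log2 fold change was 0.72. The summed level of the list was 307 to 432 CPM in DMSO, 2188, 2408 and 1116 CPM in replicates 1, 5 and 6, and 367, 375 and 389 CPM in replicates 2, 3 and 4. With the 5 left out, 5 members were still higher, lyz, npsn, mmp13a, LECT2 and the oxidase subunit NCF4, while the median fell to 0.02, near that of all genes (-0.01).

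Among 43 tested macrophage genes, 11 were higher and 0 lower with a median of 0.72. Their score, the mean log2 CPM of a list minus its DMSO mean, was above the DMSO range in replicates 1, 5 and 6 only (1.25, 1.20 and 1.12, against -0.08 to 0.20 in the other 3), and without the 5 libraries 1 member was higher and the median was -0.01. That member was timd4, the receptor with which macrophages bind phosphatidylserine on dying cells. It had 14 counts in all in the 6 DMSO libraries, 0 to 4 each, which is at or under 0.122 CPM. At 10 nM it ran from 0.969 to 5.10 CPM, and its 3 highest libraries were replicates 2, 3 and 4 (log2 4.97, SE 0.53, adjusted p = 3.34e-05; 5.47 without the 5). The order of the libraries for timd4 was thus unlike that for lyz.

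Among 31 T cell and NK cell genes, 5 were higher and 0 lower. The score was above the DMSO range in all 6 libraries, from 0.191 to 1.11. The largest of the 5 was in nkl.2, an NK-lysin, an antimicrobial peptide of lymphocyte granules, at 313 and 132 CPM in replicates 1 and 5 against 0.366 to 5.79 CPM in DMSO. Replicate 2, at 5.58 CPM, lay inside the control range. No T or NK gene was called without the 5 libraries. The 12 tested B cell and plasma cell genes had no called member, with a median of 0.66 and all 6 scores above the controls.

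Chemokines, interleukins and their receptors, the secreted signals that direct leukocytes, were the list with the most called members by number. Of 133 tested, 35 were higher and 0 lower, with a median log2 fold change of 0.78. That is 26.3%, against 7.4% of all genes, and some smaller lists had higher shares, such as neutrophil genes (38.1%). Of the 35, 7 were separated from DMSO in all 6 libraries. Among all tested members, 6.77% lay above every control in all 6, against 2.93% of all genes. The list score was above the DMSO range (-0.166 to 0.148) in 5 libraries, at 1.13, 1.19 and 1.05 in replicates 1, 5 and 6 and 0.535 and 0.402 in replicates 3 and 4, while replicate 2 stood at 0.133. Once the 5 libraries were left out, 3 members were higher, against 1.02% of all genes, and the median was 0.25. With 1 library left out, 15 (10 nM replicate 5) to 51 (10 nM replicate 3 or 4) were higher.

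Those 3 were all receptors. CCR9 (ENSDARG00000055186), a chemokine receptor used by lymphocytes to home to the gut, lay between 0.414 and 1.34 CPM in DMSO and between 4.38 and 46.5 CPM at 10 nM (log2 4.40, SE 0.50, adjusted p = 8.47e-05; 3.05 without the 5). The TNF receptor family member tnfrsf18, a costimulator of T cells in mammals, rose by 3.21 (SE 0.46), and il15ra, the binding chain for interleukin 15, by 1.54 (SE 0.30), both in all 6. Among ligands, ccl35.1 (log2 2.23) and cxcl19 (2.65) also rose in all 6 but were not called without the 5. The neutrophil attractant cxcl8b.1 rested on few libraries, with 262 CPM in replicate 6, 14.7 in replicate 5 and 6.79 in replicate 1 against at most 2.07 CPM in DMSO. Replicate 3 stood at 3.30 CPM, and replicates 2 and 4, at 1.06 and 1.35 CPM, lay inside the control range.

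Grouped by the letters of their symbol, the CXC and CC chemokines were the families with the highest share called higher among 281 families of at least 10 tested genes, 7 of 14 (50%) and 10 of 23 (43.5%). Of these 17 genes, 3 were separated from DMSO in all 6 libraries, cxcl19, cxcl11.1 and ccl35.1.

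Interferon-response genes were higher in libraries of both kinds. Of 80 tested, 20 were higher and 0 lower, with a median of 0.54. The score was above the DMSO range (-0.328 to 0.094) in all 6 libraries, and its order did not follow the principal component: 0.76 in replicate 3 and 0.757 in replicate 5, then 0.619, 0.55, 0.454 and 0.303 in replicates 1, 2, 6 and 4. With 10 nM replicate 1 or 5 left out, 7 were higher. Without the 5 libraries the median was 0.40 and 4 members were higher, ifi44f4, irf1b, the antiviral GTPase mxa and RSAD2, which encodes viperin. ifi44f4, an interferon-induced gene, lay between 4.66 and 11.7 CPM in DMSO and between 15.3 and 20.7 CPM at 10 nM with no overlap (log2 1.05, SE 0.19, adjusted p = 0.00483; 1.09 without the 5). ifi27.3 rose by 2.59 (SE 0.55) in all 6 and was not called without the 5 (2.39, adjusted p = 0.0524). mxa exceeded every control in 3 libraries and RSAD2 in 4, so both overlapped the controls.

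Of 42 tested antigen-processing genes, 11 were higher and 0 lower (median 0.32), and all 6 scores were above the controls. Of these 11, psmb12 alone was higher without the 5 libraries. The immunoproteasome subunit psmb12 rose in all 6, from 26.6 to 36.4 CPM in DMSO to 39.5 to 83.2 CPM (log2 1.02, SE 0.19, and 0.48 without the 5), as did the proteasome activator PSME2 (0.72, SE 0.16; 0.31 without the 5, adjusted p = 0.105). Constitutive proteasome genes did not move together: of 55 proteasome genes, 6 were higher, the immune subunits among them, and 3 lower. These shares were 10.9% and 5.45%, against 7.4% and 3.44% of all genes. Complement and acute phase genes showed the other pattern, with 9 of 66 higher (13.6%, against 7.4% of all genes) and 2 lower (3.03%, against 3.44%). Their scores were above the controls in replicates 1, 5 and 6 only, and 0 were called without the 5 libraries (median 0.06).

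**Figure D3:**
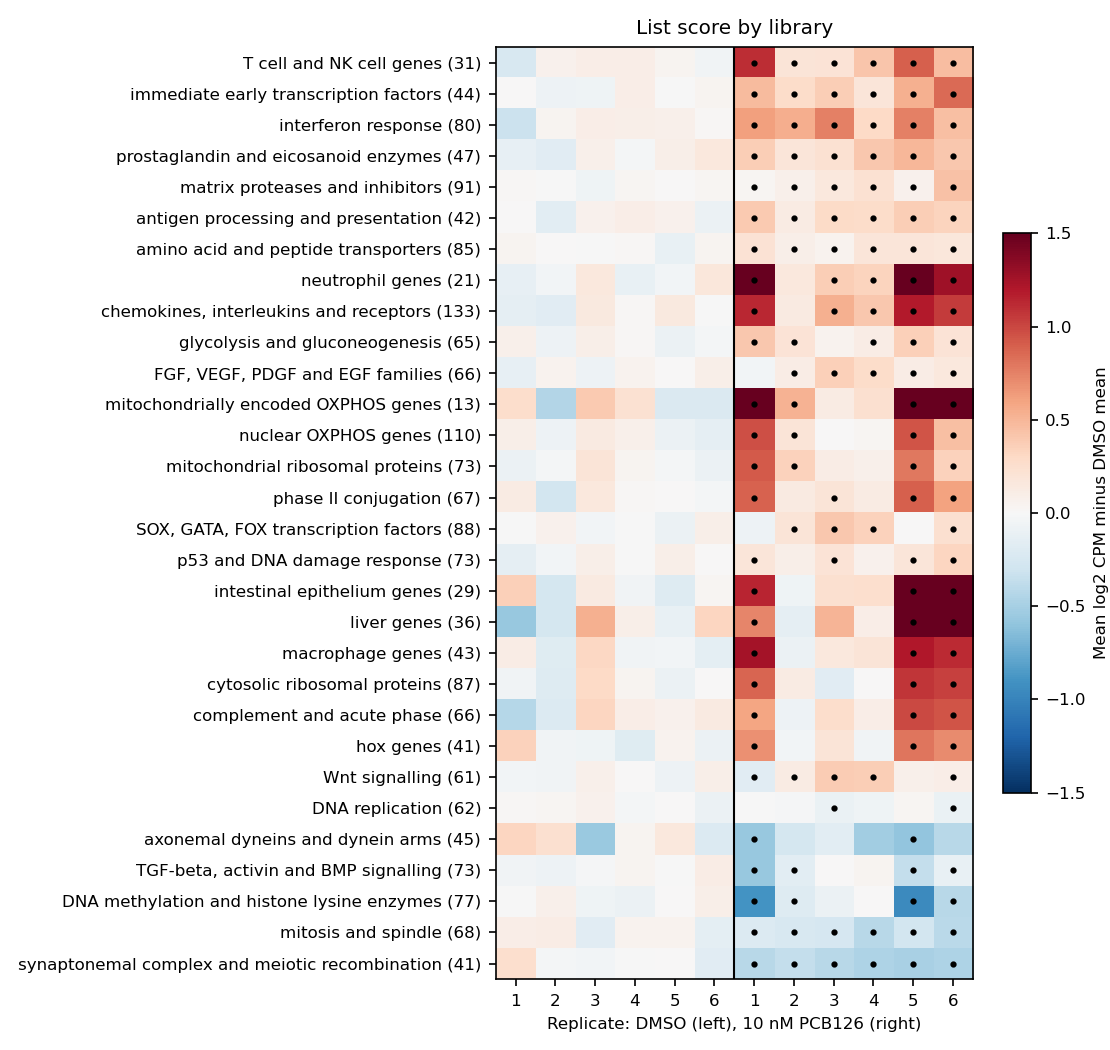
Score of 30 gene lists (rows, with the number of tested members) in the 6 DMSO libraries (left) and the 6 10 nM libraries (right), as mean log2 CPM minus the DMSO mean; red is higher, blue lower, and a dot marks an exposed library outside the range of the 6 DMSO scores. Scores of meiosis and mitosis genes were below the controls in all 6 libraries, whereas those of ribosomal protein, macrophage, intestinal and hox genes were above them in replicates 1, 5 and 6 only.

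The score of immediate early genes, which encode short-lived regulators that cells make within minutes of a stimulus, was higher in all 6 libraries. Of 44 tested, 16 were higher and 0 lower (median 0.34), 9 of them separated from every control, and 9 to 18 were higher with any 1 library left out, the 9 without DMSO replicate 2 or 10 nM replicate 6. The score ran from 0.178 to 0.85 against -0.08 to 0.099 in DMSO. The zinc finger factor egr1 lay between 4.60 and 12.7 CPM in DMSO and between 17.2 and 40.7 CPM at 10 nM (log2 1.57, SE 0.27, adjusted p = 0.00336). The AP-1 subunit JUNB (ENSDARG00000104773) rose by 1.72 (SE 0.23), ier2a by 1.18 (SE 0.20) and ier2b by 1.43 (SE 0.27). These 4 and the antiproliferative gene BTG2 (1.11, SE 0.22) were also called without the 5 libraries, with changes of 1.25, 1.22, 0.68, 1.18 and 0.68.

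Damage and cell cycle arrest genes went both ways. Of 73 tested genes of the p53 and DNA damage list, 11 were higher (15.1%, against 7.4% of all genes) and 6 lower (8.22%, against 3.44%). Once the 5 libraries were left out, 3 were higher and 4 lower, against 1.02% and 0.883% of all genes. With the span trend removed 5 of 73 were higher, a share below the 8.29% of all genes. In that fit 6 were lower, a share above the 4.39% of all genes. GADD45B (ENSDARG00000013576), a stress-induced growth arrest gene, rose by 1.05 (SE 0.17) and the cyclin-dependent kinase inhibitor CDKN1B (ENSDARG00000029018) by 1.14 (SE 0.23), each in all 6, and without the 5 libraries GADD45B was called (0.76) and CDKN1B was not (0.69, adjusted p = 0.0878). RAD54L, a motor of recombinational repair, fell by 0.48 (SE 0.09) in all 6.

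Enzymes that cut the extracellular matrix and their inhibitors were called higher more often than all genes, and lower about as often. Of 91 tested, 13 were higher (14.3%, against 7.4% of all genes) and 4 lower (4.4%, against 3.44%). Of these, 7 and 4 were separated from DMSO in all 6 libraries. That is 7.69% and 4.4% of the list, against 2.93% and 3.2% of all genes. The inhibitor TIMP2 (ENSDARG00000075261) lay between 8.74 and 11.3 CPM in DMSO and between 15.1 and 86.1 CPM at 10 nM (log2 2.19, SE 0.33, adjusted p = 0.00134). TIMP4 (ENSDARG00000102617) rose by 4.61 (SE 0.72) and the membrane-bound protease MMP14 (ENSDARG00000002235) by 1.01 (SE 0.18). All 3, with mmp13a, were called without the 5 libraries, at 1.34, 2.81, 0.77 and 1.82. The procollagen protease adamts2a fell from 12 to 19.5 CPM in DMSO to 2.71 to 11.9 CPM (log2 -1.51, SE 0.43), with replicate 4 just below the lowest control, and was not called without the 5. The list score was above the DMSO range in all 6 libraries, and in 5 with RLE scaling.

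Few genes of secreted growth signals were called, although some list scores left the DMSO range. The score of the FGF, VEGF, PDGF and EGF list was above that range in 5 libraries. The Wnt score was above it in 4 (3 with RLE scaling) and below it in 1. The TGF-beta score was below it in 4. Of 66 tested genes of the FGF, VEGF, PDGF and EGF families, 6 were higher and 1 lower (median 0.17). These shares were 9.09% and 1.52%, against 7.4% and 3.44% of all genes. fgf7, a fibroblast growth factor that acts on epithelia, had 12 counts in all in DMSO, 0 to 3 a library, and 1.28 to 3.03 CPM at 10 nM (log2 4.76, SE 0.58, adjusted p = 0.000194; 4.87 without the 5). Replicates 2, 3 and 4 stood at 1.64, 3.03 and 2.19 CPM and replicates 1, 5 and 6 at 1.28, 2.78 and 1.66 CPM, so the 2 sets overlapped. VEGFA (ENSDARG00000103542, log2 1.04, SE 0.21), FGF10 (ENSDARG00000100475, 1.0, SE 0.25) and the receptor ERBB3 (0.82, SE 0.20) rose in all 6 too. In the fit without the 5 libraries 2 members were called, fgf7 and ERBB3, while VEGFA (log2 0.94, adjusted p = 0.0525) and FGF10 (1.13, adjusted p = 0.0669) were not.

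Of 61 Wnt pathway genes, 6 were higher (9.84%, against 7.4% of all genes) and 1 lower (1.64%, against 3.44%). The receptor FZD9 (ENSDARG00000014673) lay between 4.50 and 7.55 CPM in DMSO and between 13.1 and 20.8 CPM at 10 nM (log2 1.51, SE 0.19, adjusted p = 0.000257; 1.55 without the 5). RSPO1, which amplifies Wnt signals, rose in all 6 by 1.14 (SE 0.25), and WNT7A in 5 by 1.15 (SE 0.24; 0.94 without the 5, adjusted p = 0.067). With the 5 left out, 3 Wnt genes were higher, FZD9, RSPO1 and the transcription factor LEF1, and 1 was lower, the receptor LGR4.

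In the TGF-beta family the largest called change was the fall of FST (ENSDARG00000057992), follistatin, which binds and neutralises activin. FST lay between 30.4 and 86.4 CPM in DMSO, with a median of 60.4, and between 7.17 and 13.2 CPM at 10 nM, with a median of 9.08 (log2 -2.64, SE 0.27, adjusted p = 1.73e-05; -2.78 without the 5). INHBA (ENSDARG00000012671), a subunit of activin, fell by 0.95 (SE 0.26) and inha, the inhibin alpha subunit, by 1.06 (SE 0.32), both in all 6. BMP4 (0.53, SE 0.15), BMP5 (1.28, SE 0.39) and the BMP inhibitor NOG (0.94, SE 0.27) rose in all 6. In total 6 of 73 tested members were higher (8.22%, against 7.4% of all genes) and 5 lower (6.85%, against 3.44%). Without the 5 libraries 0 were higher and 3 lower. FST was 1 of those 3. INHBA (log2 -0.86, adjusted p = 0.095), inha (-0.51, 0.0689), BMP4 (0.50, 0.133), BMP5 (1.13, 0.151) and NOG (0.97, 0.0847) were not called there, and BMP5 was called in 2, BMP4 and inha in 3, NOG in 5 and INHBA in 7 of the 12 fits with 1 library left out.

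Developmental transcription factors of the SOX, GATA and FOX families included several that were higher in every exposed library. Of 88 tested, 14 were higher (15.9%, against 7.4% of all genes) and 3 lower (3.41%, against 3.44%). For 9 of the 14 all 6 libraries lay above every control, which is 10.2% of the list against 2.93% of all genes. With the span trend removed 7 of 80 were higher, near the 8.29% of all genes in that fit, and the median went from 0.22 to 0.04. The score was above the DMSO range in replicates 2, 3, 4 and 6 (0.192, 0.402, 0.344 and 0.238) and inside it in replicates 1 and 5. Without the 5 libraries 7 of 88 were higher, against 1.02% of all genes, and 1 lower. SOX1 (ENSDARG00000008131) had low levels, 0.0752 to 0.296 CPM in DMSO and 0.321 to 1.11 CPM at 10 nM (log2 1.74, SE 0.38, and 1.88 without the 5). foxq1b rose by 2.50 (SE 0.46), SOX11 by 1.73 (SE 0.39) and gata2b by 1.12 (SE 0.32), each in all 6 and each called without the 5.

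Among nuclear receptors, 5 of 52 were higher (9.62%, against 7.4% of all genes) and 1 lower (1.92%, against 3.44%). The orphan receptor NR0B1 rose by 0.90 (SE 0.19) and NR2F6 (ENSDARG00000003165) by 1.41 (SE 0.28), both in all 6. Without the 5 libraries NR0B1 was called (log2 1.01) and NR2F6 was not (0.79, adjusted p = 0.0908), and with the span trend removed NR0B1 was not (adjusted p = 0.109). PGR, the nuclear progestin receptor, fell in all 6, from 21.9 to 39.2 CPM in DMSO to 3.00 to 17.1 CPM (log2 -1.55, SE 0.38, adjusted p = 0.0203; -1.18 without the 5), and its 2 lowest libraries were replicates 1 and 5. In the retinoic acid pathway, 7 of 59 were higher (11.9%, against 7.4% of all genes) and 1 lower (1.69%, against 3.44%). Its score was above the DMSO range in replicates 1, 5 and 6 only. Single members moved in 6 of 6. The receptor raraa rose by 0.82 (SE 0.16) and the retinol-oxidising enzyme RDH10 (ENSDARG00000058730) by 0.58 (SE 0.12). STRA6, the retinol transporter of the cell membrane, fell by 0.72 (SE 0.16). Without the 5 libraries 2 members of that pathway were higher and 0 lower. There raraa was called, whereas RDH10 (log2 0.38, adjusted p = 0.0908) and STRA6 (-0.49, 0.0525) were not, and RDH10 was not with the span trend removed either (0.18).

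**Figure D4:**
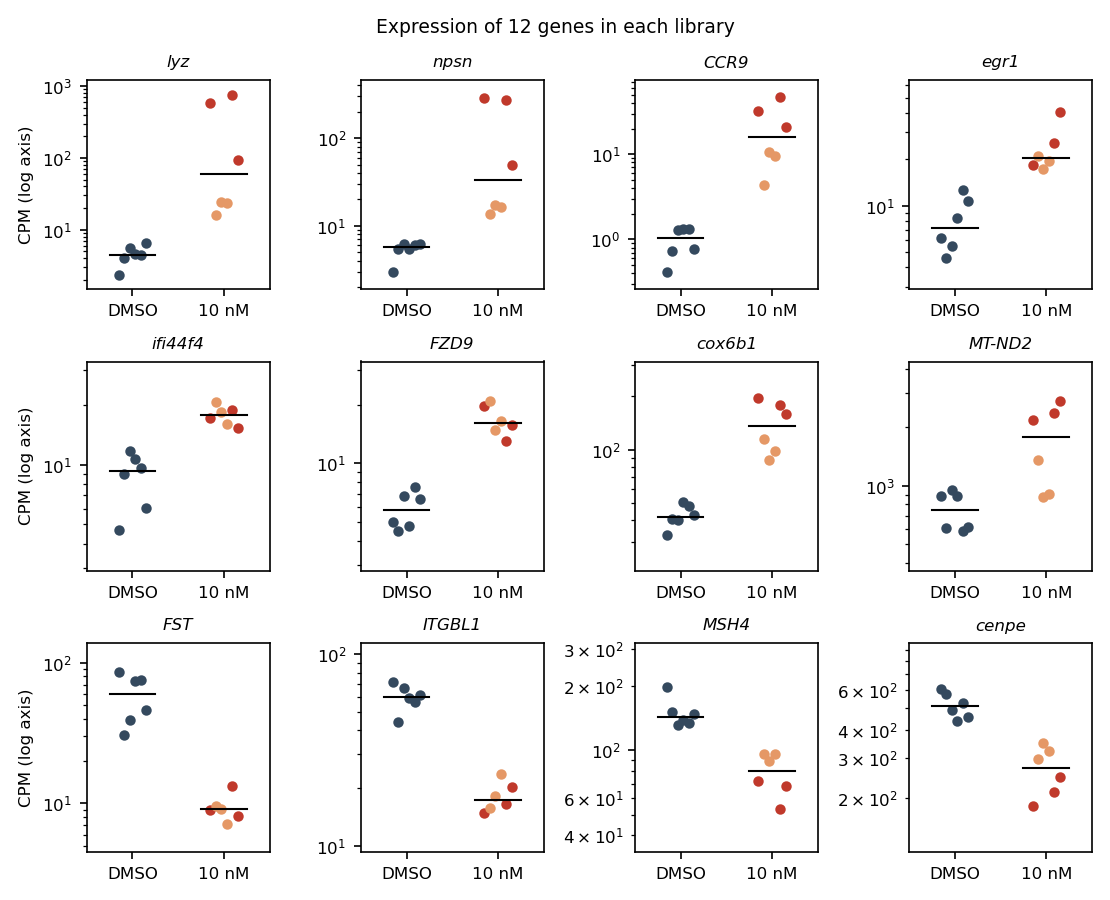
CPM of 12 genes (y axes, log scale) in the 6 DMSO and 6 10 nM libraries; each point is a library, orange for 10 nM replicates 2, 3 and 4 and red for replicates 1, 5 and 6, and the bars are medians. FST and ITGBL1 fell alike in all 6 exposed libraries, whereas lyz ran from 16.3 to 757 CPM and MT-ND2 overlapped the controls in replicates 3 and 4.

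ITGBL1, a secreted protein with integrin-like repeats, fell by a similar amount in every exposed library. It lay between 44.5 and 71.4 CPM in DMSO, with a median of 60, and between 14.8 and 23.7 CPM at 10 nM, with a median of 17.3 (log2 -1.72, SE 0.15, adjusted p = 2.04e-06; -1.65 without the 5). Other genes that fell in all 6 were tob2, an antiproliferative gene (log2 -1.59, SE 0.38), the transcription factor tcf23 (-2.41, SE 0.47), the secreted protein SCUBE1 (-1.52, SE 0.29) and lyve1a, a lymphatic vessel receptor (-1.66, SE 0.38). Each was called without the 5 libraries too. thrsp, which promotes fatty acid synthesis (-2.54, SE 0.62), and the transporter SLC10A4 (-1.90, SE 0.56) were not, with adjusted p of 0.141 and 0.203, though their log2 fold changes there were -2.39 and -1.52. Their highest DMSO libraries stood at 13.6 and 30.5 CPM against medians of 3.41 and 5.99 CPM.

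The score of meiosis genes was lower in all 6 exposed libraries and by similar amounts. Of 41 tested members of the synaptonemal complex and recombination list, 14 were lower and 0 higher, against 3.44% lower of all genes, with a median log2 fold change of -0.40. The score was -0.419, -0.355, -0.421, -0.467, -0.49 and -0.461 in replicates 1 to 6, below every DMSO score (-0.17 to 0.249). With the 5 left out, 7 members were lower, against 0.883% of all genes, and the median was -0.51. In a fit with each library's trend with gene span removed, 17 of 38 were lower, against 4.39% of all genes in that fit. With any 1 library left out, 7 to 15 members were lower, the 7 without DMSO replicate 1, 2 or 5 or 10 nM replicate 5.

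MSH4, which stabilises crossovers, lay between 132 and 199 CPM in DMSO and between 53.3 and 96.1 CPM at 10 nM (log2 -0.93, SE 0.16, adjusted p = 0.00336). The meiotic cohesins rec8b (-0.83, SE 0.14) and rad21l1 (-0.54, SE 0.10) fell in all 6. So did spata22 (-0.71, SE 0.12) and MEIOB (-0.69, SE 0.14), partners on single-stranded DNA, the helicase HFM1 (-0.78, SE 0.17) and shoc1, a crossover factor (-1.11, SE 0.33). Each of these 7 was called without the 5 libraries. The axial protein SYCP3 was not called (-0.65, SE 0.25, adjusted p = 0.0941), with 135 to 422 CPM in DMSO and 111 to 196 CPM at 10 nM.

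The score of mitosis and spindle genes was also lower in all 6. Of 68 tested, 23 were lower (33.8%, against 3.44% of all genes) and 0 higher (median -0.29). All 6 libraries lay below every control for 11 of the 23. Among all tested members that share was 20.6%, against 3.2% of all genes. The score ran from -0.416 to -0.207 against -0.174 to 0.112 in DMSO. The kinetochore motor cenpe lay between 439 and 601 CPM in DMSO and between 185 and 351 CPM at 10 nM (log2 -0.93, SE 0.18, adjusted p = 0.00634). The cytokinesis kinesin kif20ba (-0.69, SE 0.13), cdca8, a subunit of the chromosomal passenger complex (-0.52, SE 0.10), and the spindle protein hmmr (-0.55, SE 0.11) fell in all 6. Once the 5 libraries were left out, 10 members were lower and the median was -0.34. With the span trend removed 26 of 65 were lower, and with 1 library left out 7 (DMSO replicate 2) to 27 (10 nM replicate 3).

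DNA replication genes changed in smaller number. Of 62 tested, 5 were lower (8.06%, against 3.44% of all genes) and 1 higher, and 2 exposed scores lay below the controls. Without the 5 libraries 3 were lower, MCM8, POLE and LIG1, against 0.883% of all genes. The 5 that fell were separated from DMSO in all 6 libraries, among them MCM8, a helicase used in recombination (-0.83, SE 0.16), the polymerase POLE (-0.69, SE 0.16) and CDC45 (-0.44, SE 0.10). Of 34 spermatogonial and germline identity genes, 4 were higher (11.8%, against 7.4% of all genes) and 2 lower (5.88%, against 3.44%), with 0 called without the 5. Genes of later germ cells and spermatids had 2 of 47 higher (4.26%) and 3 lower (6.38%), with no exposed score outside the DMSO range.

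Enzymes of phase II conjugation, which add sulfate, glucuronate or glutathione to foreign and internal compounds and include known AHR targets, were mixed in this respect. Of 67 tested, 12 were higher and 0 lower (median 0.54), 4 of them in all 6 libraries. The sulfotransferase sult1st1 lay between 3.38 and 7.28 CPM in DMSO and between 14.4 and 38.5 CPM at 10 nM (log2 2.12, SE 0.30, adjusted p = 0.000909; 1.61 without the 5). It was the only member called without the 5 libraries, where the median was 0.07. The glucuronosyltransferases ugt1b5 (2.68, SE 0.51) and ugt5b4 (1.49, SE 0.39) and the sulfotransferase sult6b1 (2.41, SE 0.50) were above every control in all 6 but larger in replicates 1, 5 and 6. The glutathione transferases called, such as gstk1 and gstt1b, exceeded the controls in 4 or 5 libraries. Cytochrome P450 families 2 to 4 had 3 of 44 higher (6.82%, against 7.4% of all genes), 0 of them in all 6 libraries.

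Glycolysis and gluconeogenesis genes held partly. Of 65 tested, 15 were higher and 2 lower (median 0.25), and the score was above the controls in 5 libraries. fbp1a, a gluconeogenic phosphatase (1.29, SE 0.22), the enolase ENO1 (ENSDARG00000022456, 0.62, SE 0.11) and the aldolase ALDOA (ENSDARG00000011665, 0.71, SE 0.13) rose in all 6 and were 3 of the 4 members called without the 5 libraries. CPT1B, which carries fatty acids into mitochondria, rose in all 6 by 1.92 (SE 0.34, and 1.23 without the 5). It was among 7 higher genes of 70 in lipid oxidation and transport (10%, against 7.4% of all genes). In that list 4 were lower (5.71%, against 3.44%).

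Respiratory chain genes rested mainly on replicates 1, 5 and 6. Of 13 mitochondrially encoded genes, 11 were higher (median 1.26) but none was separated from DMSO in all 6. MT-ND2, a subunit of complex I, stood at 2194, 2361 and 2734 CPM in replicates 1, 5 and 6 and at 1355, 870.4 and 903 CPM in replicates 2, 3 and 4, against 581 to 951 CPM in DMSO. The number called was 2 when DMSO replicate 2, 10 nM replicate 5 or 10 nM replicate 6 was left out, and 0 without the 5, where the median was 0.28. Nuclear genes of the chain had 12 of 110 higher (10.9%, against 7.4% of all genes), with a median of 0.50, and 0.06 without the 5. With 1 library left out, from 2 (without 10 nM replicate 5) to 37 (without 10 nM replicate 4) were higher.

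A few nuclear subunits rose in every library all the same. cox6b1, a subunit of cytochrome c oxidase, lay between 33.1 and 50.5 CPM in DMSO and between 87.7 and 196 CPM at 10 nM (log2 1.71, SE 0.22, adjusted p = 0.000328; 1.22 without the 5). cox4i1l (1.66, SE 0.35) and ndufa4b (1.41, SE 0.34) were also above every control, but with adjusted p of 0.165 and 0.0936 without the 5. Mitochondrial ribosomal protein genes had 18 of 73 higher, 9 in all 6 libraries, with 1 called without the 5, mrps6 (0.83, SE 0.16). Of 10 genes of the mitochondrial import translocase (tomm), 4 were higher (40%), tomm20a and tomm7 in all 6.

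Cytosolic ribosomal protein genes were above the DMSO range in the 3 libraries that stood apart. Their score was 0.873, 1.07 and 1.03 in replicates 1, 5 and 6, and 0.126, -0.168 and 0.003 in replicates 2, 3 and 4, against -0.196 to 0.297 in DMSO. With RLE scaling 3 were again above the range and 1 was below it. Of 87 tested, 2 were called, RPL22L1 and RPL36, both higher and both above the controls in 3 libraries. Leaving out 10 nM replicate 3 gave 39 called and replicate 4 gave 27, and without the 5 libraries 0 were called and the median was -0.02. These genes are short, with a median span of 5.01 kb against 17.9 kb for all genes with a span, and in the span-adjusted fit the list median was 0.23 and 1 was higher, against 8.29% of all genes.

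The scores of intestinal epithelium, liver and hox genes were above the controls in the same 3 libraries. Of 29 tested intestinal genes, 9 were higher and 1 lower (median 0.91; 0.00 and 0 called without the 5). Their summed level was 989 to 1689 CPM in DMSO, 2584, 3274 and 5054 CPM in replicates 1, 5 and 6 and 1654 to 1821 CPM in the others. The lectin jac2 stood at 326 CPM in replicate 6 at 3.80 and 12 CPM in replicates 1 and 5, and at 0.177, 2.07 and 0.505 CPM in replicates 2, 3 and 4. The DMSO libraries held 18 counts of it in all, up to 0.209 CPM, so 5 of 6 lay above them. Another, jac7, stood at 281 CPM in replicate 6 and 6.36 CPM or less in the other exposed libraries, and lay above every control in 4. The ion transport regulator fxyd12 stood at 184 CPM in replicate 5, 11.7 in replicate 1 and 0.404 CPM or less in the other 4, against up to 1.47 CPM in DMSO. Of 36 liver genes, 0 were called in either direction (median 0.86). Of 41 hox genes, 3 were higher (median 0.65, and -0.03 without the 5). That is 7.32% of the hox list, the same as the 7.4% of all genes.

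The families with the highest share called lower were axonemal dynein heavy chains (dnah, 6 of 12, 50%), intraflagellar transport (ift, 4 of 14, 28.6%) and the DENN domain genes (dennd, 5 of 18, 27.8%). These were followed at 25% by the anchoring proteins (akap), the immunoglobulin superfamily genes (igsf) and the Integrator complex (ints). Dyneins drive the beat of the flagellum. DNAH3 lay between 96.5 and 194 CPM in DMSO and between 24.0 and 89.9 CPM at 10 nM (log2 -1.28, SE 0.31, adjusted p = 0.0195; -0.84 without the 5), and DNAH5 fell in all 6 as well (-0.91, SE 0.23). The other 4 dnah genes that fell were below the controls in 3 libraries. Over 45 dynein genes, 9 were lower and 0 higher, only 2 exposed scores lay outside the DMSO range (-0.557 to 0.322), and 0 were called when DMSO replicate 2 was left out against 15 without DMSO replicate 3.

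The 4 Integrator genes that fell, subunits of a complex that cleaves nascent RNA, did so in all 6 libraries and by little. INTS5 fell by 0.50 (SE 0.10), INTS13 by 0.40 (SE 0.10), INTS3 by 0.54 (SE 0.14) and INTS14 by 0.30 (SE 0.08), and INTS5 and INTS13 were called without the 5. None of the 4 intraflagellar transport genes fell in all 6. DNA methylation genes and enzymes that act on histone lysines had 5 of 77 lower and 2 higher. These shares were 6.49% and 2.6%, against 3.44% and 7.4% of all genes. All 6 libraries lay below every control for 13% of the list, against 3.2% of all genes. The scores were -0.901, -0.959 and -0.413 in replicates 1, 5 and 6 and -0.199 to 0.007 in the others. The list holds long genes (median span 35 kb). The demethylase KDM1A (-0.59, SE 0.14), kdm3b (-0.50, SE 0.13) and the methyl-DNA-binding gene mbd1b (-0.31, SE 0.08) fell in all 6, and 0 members were called without the 5.

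Among membrane transporters single genes moved in all 6. The bicarbonate cotransporter SLC4A4 (ENSDARG00000013730) fell from 26.8 to 63.5 CPM in DMSO to 17.2 to 21.6 CPM (log2 -1.11, SE 0.19, adjusted p = 0.00393). The amino acid transporter subunits SLC3A1 (-1.29, SE 0.23) and SLC7A10 (ENSDARG00000051730, -0.76, SE 0.14) fell, and the peptide transporter SLC15A2 (0.72, SE 0.14) rose. All 4 were called without the 5 libraries. Of 85 amino acid and peptide transporters, 11 were higher (12.9%, against 7.4% of all genes) and 4 lower (4.71%, against 3.44%). Their score was above the DMSO range (-0.108 to 0.0449) in all 6 libraries, at 0.0492 to 0.221, and in 5 with RLE scaling.

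The fit that left out 10 nM replicates 1, 5 and 6 but kept every 3 nM library made fewer calls in all of these lists or the same number. It called 0 meiosis, 0 mitosis and 0 DNA replication genes, although the medians of the first 2 lists, -0.49 and -0.32, were close to those without the 5 (-0.51 and -0.34). It called 2 immediate early, 2 interferon, 2 chemokine, 3 neutrophil and 3 matrix protease genes higher, and 1 each of the Wnt, SOX, GATA and FOX, growth factor, glycolysis, phase II and macrophage lists. It called 0 p53 and DNA damage genes and 0 antigen-processing genes.

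Functions of the testis and of cell stress differed in how many of their genes were called. Among Sertoli cell genes the share called higher was above that of all genes. Of 23 tested, 5 were higher (21.7%, against 7.4% of all genes) and 1 lower, 2 and 1 of them in all 6 libraries. Their score was above the DMSO range in 1 library. Without the 5 libraries 2 were higher and 0 lower. Of 37 androgen synthesis and Leydig cell genes, 3 were higher and 3 lower (8.11% each, against 7.4% and 3.44% of all genes). Among the lower genes, cyp17a2 fell by 1.20 (SE 0.30, adjusted p = 0.0217) and was below every control in 3 libraries. It was not called without the 5 (log2 -0.98, adjusted p = 0.187). The steroid hydroxylase CYP17A1 fell by 1.39 (SE 0.31, adjusted p = 0.0147) but was below every control in 4 libraries, replicates 1, 4, 5 and 6, and was not called without the 5 (log2 -0.96, adjusted p = 0.192). CYP11A1 (ENSDARG00000092696), which makes the first steroid from cholesterol, was lower with all libraries, in 5 of 6, and without the 5 (log2 -0.96, adjusted p = 0.0327). Heat shock proteins and cochaperones had 3 of 111 higher and 4 lower, the unfolded protein response 4 of 42 and 2, circadian clock genes 4 of 39 and 2, collagens 1 of 55 and 3, and splicing factors 4 of 90 and 1. In each of these 5 lists 0 or 1 member was called without the 5 libraries. The shares called higher in these 5 lists, 1.82% to 10.3%, were near the background of 7.4% or below it. The shares called lower were 5.45% for collagens, 5.13% for circadian clock genes and 4.76% for the unfolded protein response. They were 3.6% for heat shock proteins and 1.11% for splicing factors, against 3.44% of all genes.

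**Figure D5:**
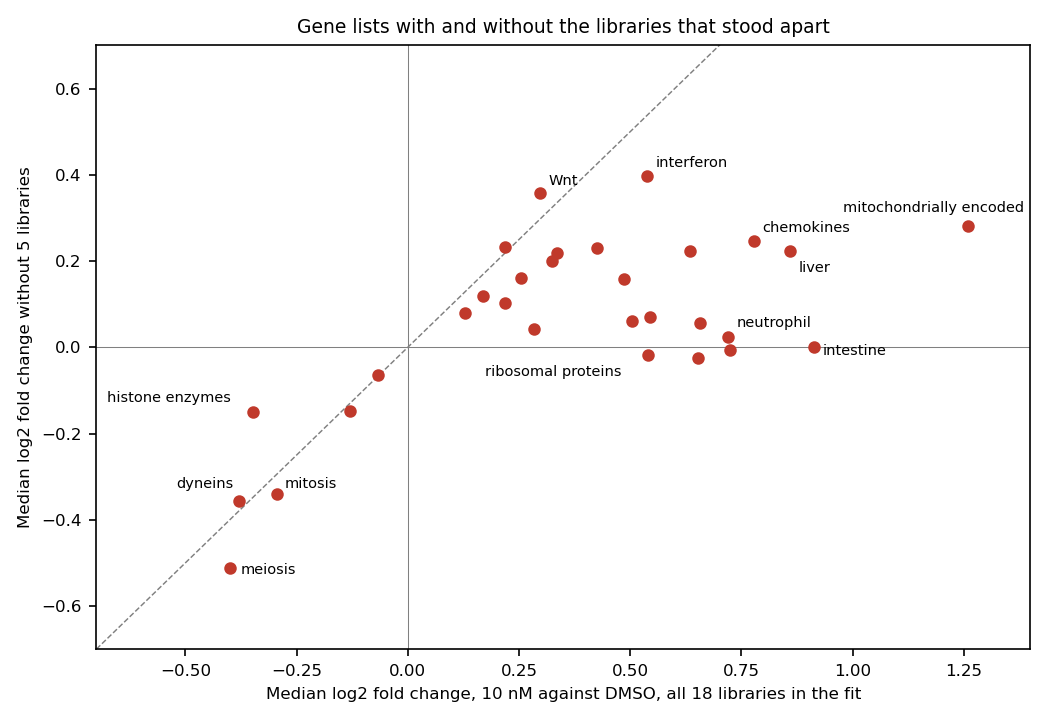
Median log2 fold change of 30 gene lists with all 18 libraries in the fit (x axis) and without the 5 libraries that stood apart (y axis); the dashed line marks equal values. Mitosis, dynein and Wnt genes lay near the line and meiosis genes just below it, whereas intestinal, ribosomal protein, neutrophil and mitochondrially encoded genes lay far below it.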

How the data were processed

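Whole-testis RNA was measured in 18 libraries, 6 per group, from stranded total RNA kits with single-end reads of 50 bases, per the labels' protocols. The authors deposited raw counts per Ensembl gene, 1 table per library. Per the submitters' processing notes the tools were HTSeq, STAR, edgeR and FastQC and the build GRCz10, with no versions. The annotation release and the strand setting are not stated there. Symbols came from a name table that matched 27000 of 35117 identifiers, and genomic spans from RefSeq by symbol.

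Library totals, scaled by TMM, were used with edgeR 4.0.16 in R 4.3.3. After filterByExpr, 1 quasi-likelihood fit of all 18 libraries (15 residual degrees of freedom) gave the 10 nM against DMSO contrast with Benjamini-Hochberg adjustment. The SE is the log2 fold change divided by the root of F. List scores used log2 CPM with a prior count of 2. A total of 3 counts is worth 0.101 to 0.185 CPM per library. The fit was tested on simulated data, with 50 genes changed at each of several folds. Counts were drawn for each gene on its own, without the split between libraries seen in the real data. The rates therefore do not measure error or power in the real libraries. It recovered 6% of genes at 1.5-fold, 52% at 2-fold, 84% at 4-fold and 38% at 0.5-fold. Of 23144 unchanged genes 3 were called. A gene that was not called may therefore still have changed by a modest amount.

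The gene lists, 77 in all, and the members described were chosen with earlier results of these data known. Genes were named by rule, the 15 largest increases and decreases without overlap, 5 with overlap, and up to 4 per list, among genes of at least 1 CPM on average. Genes named because they were called without the 5 libraries, and those used for contrast, were chosen after their values were seen. Alternatives were other scalings (RLE, upper quartile), other filters, the 12 libraries alone, a replicate block, DESeq2 1.42.0, each library left out, the libraries that stood apart left out, and, chosen after seeing the data, removal of each library's trend with span. The fits without those libraries were listed with earlier results known. Bisulfite data were not analysed here.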

Additional observations from a re-analysis of the deposited data

Results flagged for a closer look

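Among 120 sets of 6 libraries, 60 of list scores and 60 of single genes, 7 held a library far from its nearest neighbour relative to the range of the 6. Chance gives about 1 in 20, but the lists and genes checked were a chosen part of those named, so the rates cannot be compared. For instance foxq1b, at 29.7 CPM in 10 nM replicate 6 against a 10 nM median of 5.03 CPM, was not checked. All 7 that were found were in the DMSO group. The measure does not flag exposed libraries that lie apart together, as replicates 1, 5 and 6 often did. The interferon score of DMSO replicate 1 was the lowest, at -0.328, and the amino acid and peptide transporter score of DMSO replicate 5 was the lowest, at -0.108. For fgf7, DMSO replicate 3 stood at 0 CPM, and for timd4, DMSO replicate 4 stood at 0 CPM. MSH4 was highest in DMSO replicate 1, at 199 CPM. npsn was lowest in DMSO replicate 1, at 3.01 CPM, and sult1st1 was lowest in DMSO replicate 2, at 3.38 CPM.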

How the results depend on the processing

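The number of genes called depended strongly on which libraries were in the fit. Against 2609 called (1781 higher, 828 lower, 1049 without overlap), the 12 libraries alone gave 1699 (502 lower), and DESeq2 gave 4585 (2760 higher, 1825 lower). Without 10 nM replicates 1, 5 and 6 there were 100 called, 87 higher, 13 lower and 99 without overlap, with 3136 genes at an unadjusted p under 0.05. Without 3 nM replicates 4 and 6 as well there were 468, 251, 217 and 461. Both of these fits hold 3 exposed libraries. Leaving out 1 library gave 826 to 3855 called, 600 to 2572 higher, 226 to 1320 lower and 568 to 1631 without overlap. Higher genes were 68.3% of those called, 62.3% with RLE and 76.3% with upper quartile scaling. The sign turned for fxyd12 (-0.49 without the 3 exposed libraries and -0.50 without the 5), RPL22L1 (-0.027 and -0.047) and cfbl (-0.045 and -0.064). The cause was not tested.

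Replicate numbers did not pair the samples: same-numbered DMSO and 10 nM libraries had correlations of their deviations from -0.115 to 0.242, and with the number as a block 684 genes were called, 501 higher, 183 lower and 475 without overlap. With 6 libraries a group and these totals, genes near 0.1 CPM rest on few counts.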

Other observations

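Several lists not described above held genes that changed in every exposed library. The shares called higher were 16.7% for neuronal, 5.71% for Notch and 8.78% for TRIM and NLR genes, against 7.4% of all genes. All 6 exposed libraries lay above every control for 5.56%, 5.71% and 2.7% of these lists, against 2.93% of all genes. The TRIM and NLR list thus held no excess of such genes. Among 36 neuronal genes, 6 were higher and 1 lower. The synaptic vesicle gene SYN2 (log2 0.88, SE 0.18) and gap43, a growth cone protein (1.20, SE 0.30), rose in all 6, and SYN2 was also called without the 5 libraries (0.83). Among 35 Notch pathway genes, 2 were higher and 2 lower, with the glycosyltransferase mfng higher in all 6 (1.09, SE 0.24), and notch2 lower in all 6 (-0.61, SE 0.19). HES1, a Notch target, rose in 5 of 6 (1.32, SE 0.24; 1.63 without the 5). Among 148 TRIM and NLR genes, 13 were higher and 3 lower, and ftr53 rose in all 6 (1.19, SE 0.27).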
